A study of Mus musculus with 4 samples.

Results

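The 10 genes described here are 5 CCN genes, *Ctgf*, *Cyr61*, *Nov*, *Wisp1*, and *Wisp2*, and 5 genes of the YAP pathway, *Yap1*, *Wwtr1*, *Tead1*, *Amotl2*, and *Ankrd1*. They were taken by symbol from the 23946 symbols listed for each library. The libraries were made from CD51+;CD200+ skeletal stem/progenitor cells of wild type CD-1 mice at postnatal day 3, with no treatment. The cells were sorted 2 times by FACS, and cells positive for Ter119, CD45, CD105, 6C3, Tie2, Thy1.1, or Thy1.2 were gated out. There was 1 library each from the growth plate (GP) of the tibia, which served as the reference, and from 3 cranial sutures, the coronal (COR), the sagittal (SAG), and the posterior frontal (PF). PF is the suture that later fuses, while SAG and COR stay patent, and at this age the sutures are all still patent. Each suture sample was cut out with bone fronts, mesenchyme, dura mater, and periosteum before sorting, and cDNA was amplified from low input. Values are FPKM, fragments per kilobase of transcript scaled for library size, so that levels of different genes can be set side by side per length. How the libraries were scaled to each other is not given in the sources used here. Since no tissue had a replicate library, no test was made, and tissue and library differences cannot be told apart.

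CCN proteins are secreted matricellular proteins with a shared modular build, which bind integrins, proteoglycans, and growth factors in the pericellular matrix of cartilage, bone, and connective tissue. *Yap1* and *Wwtr1*, the gene of TAZ, encode transcriptional coactivators that the Hippo kinases hold in the cytoplasm, and that enter the nucleus and bind TEAD factors when cells spread or sense tension. *Ctgf*, *Cyr61*, *Ankrd1*, and *Amotl2* are widely used target genes of this pathway, and the product of *Amotl2* in turn binds YAP. Messenger RNA levels of *Yap1* and *Wwtr1* do not measure the activity of their proteins, which is set largely by location and phosphorylation.

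TEAD factors bind DNA at a short motif, CATTCC, or GGAATG when read on the opposite strand. The RefSeq promoter windows used here run from 250 bases before to 50 bases after a transcription start, on build GRCm38.p6, and a window was matched for 5 of the 10 genes, *Cyr61*, *Yap1*, *Wwtr1*, *Ankrd1*, and *Amotl2*. Each of these 5 genes had the motif in its window, compared with 14.7% of all 32851 windows of the same length. Since 3 of the 5 are known target genes of the pathway, and the other 5 genes had no window, this does not measure enrichment. The percentage also counts windows and not genes. No window of the 5 genes had a CArG box, the serum response factor motif searched on both strands, which 1.63% of all windows held. The windows of the 3 target genes are shown here, to set side by side the sites of genes with different levels, and capitals mark the motif. The *Cyr61* window lies at chr3:145649936-145650235 on the minus strand, that of *Amotl2* at chr9:102717554-102717853 on the plus strand, and that of *Ankrd1* at chr19:36119795-36120094 on the minus strand.
Cyr61: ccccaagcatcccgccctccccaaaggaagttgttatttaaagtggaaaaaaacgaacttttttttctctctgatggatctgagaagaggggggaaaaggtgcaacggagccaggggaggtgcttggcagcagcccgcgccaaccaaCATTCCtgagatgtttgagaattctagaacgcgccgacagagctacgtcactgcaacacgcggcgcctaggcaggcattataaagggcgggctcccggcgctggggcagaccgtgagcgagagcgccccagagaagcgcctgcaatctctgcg
Amotl2: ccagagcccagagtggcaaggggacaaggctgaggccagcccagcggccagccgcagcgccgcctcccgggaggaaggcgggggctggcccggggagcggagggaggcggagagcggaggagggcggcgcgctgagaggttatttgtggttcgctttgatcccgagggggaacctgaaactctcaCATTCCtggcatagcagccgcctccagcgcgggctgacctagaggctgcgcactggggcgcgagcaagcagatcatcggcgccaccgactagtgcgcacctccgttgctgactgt
Ankrd1: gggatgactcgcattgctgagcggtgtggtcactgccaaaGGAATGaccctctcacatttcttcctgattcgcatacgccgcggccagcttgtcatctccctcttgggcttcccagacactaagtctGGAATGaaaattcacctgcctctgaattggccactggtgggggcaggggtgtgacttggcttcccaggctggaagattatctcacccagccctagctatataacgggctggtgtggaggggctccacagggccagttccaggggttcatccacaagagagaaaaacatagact
With the start counted as 0, the motif began at -103 in *Cyr61*, at -65 in *Amotl2*, and at -210 and -123 in *Ankrd1*. In *Yap1* it began at -141, and in the windows of 2 overlapping starts of *Wwtr1* the same site lay at -136 and -170. A match of letters is a description and not a measured binding site.

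**Figure D1:**
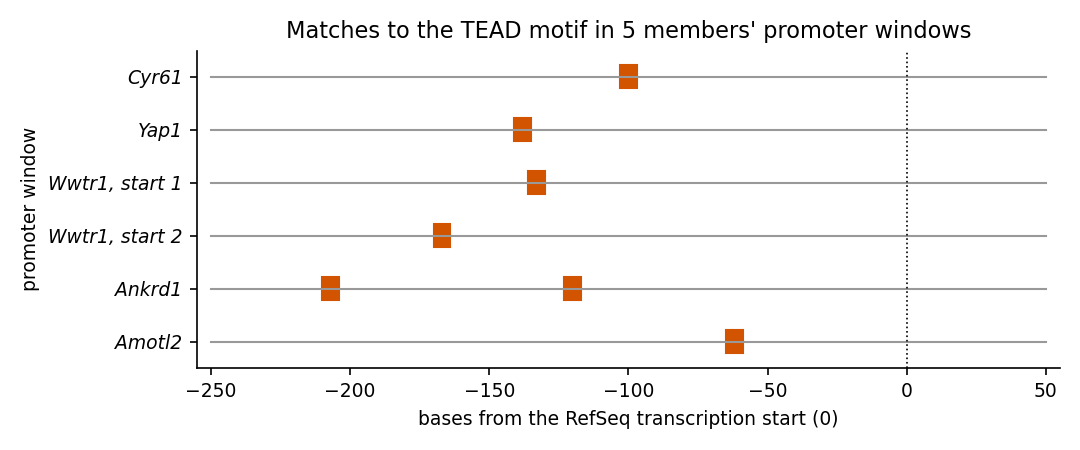
Position of each match to the TEAD motif (orange boxes) in the promoter windows of 5 genes, in bases from the RefSeq transcription start (0); grey lines span the window searched. Each window has 1 match apart from *Ankrd1*, which has 2, and every match lies before the start.

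The sequencing depth is not given with the FPKM values, but the low values fall on a ladder whose smallest step is the worth of 1 fragment. By this step the PF library was the shallowest, at 43.1% of the fragments of SAG, compared with 82.9% for GP and 87.6% for COR, if FPKM was scaled in proportion to fragments. On the same estimate, each of the 9 genes other than *Ankrd1* rested on at least 221 fragments in every library. Fragments are not independent molecules after amplification, so this covers counting error only. The housekeeping gene *Gapdh* was listed at 281 FPKM in the PF library, the lowest, and at 407 in the SAG library, the highest. *Sparc*, *Col1a1*, and *Col3a1*, abundant matrix genes at more than 100 FPKM in each other library, are listed at 0 in COR, a sign that a listed 0 can be a failed estimate. The gate markers *Itgav*, the gene of CD51, and *Cd200* lay between 6.20 and 62.6 FPKM, and *Ptprc*, *Tek*, and *Thy1*, the genes of CD45, Tie2, and Thy1, stayed below 1. *Enpep*, which encodes 6C3, reached 7.05 FPKM in PF and between 1.39 and 3.74 elsewhere, and *Eng*, the gene of CD105, stayed at 1.70 or less. The 8 haematopoietic markers listed for comparison summed to 49.9 FPKM in PF, with *Lyz2* at 30.2, and to 12.6 or less elsewhere. Of the 8, 4 reached 1 FPKM in PF. The SAG library stood apart in choroid plexus and neural genes, whose list of 8 summed to 5283 FPKM, compared with 478 or less elsewhere. *Ttr* made up most of these sums, at 5103 FPKM in SAG and 465 in PF. *Tubb3* went the other way, at 10.2 FPKM in COR, its highest, and 1.28 in SAG, its lowest. Because SAG stood apart, counts of genes past 3-fold in any pair are also given without SAG where they differ by more than 1.5 times.

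The CCN genes differed between libraries and the YAP pathway genes differed much less. A ratio of at least 3-fold on the log2(FPKM + 1) scale, 1.58 in log2 units, was counted between any pair of libraries for genes at 1 FPKM or more in either. All 5 CCN genes passed in at least 1 of the 6 pairs, and none of the 4 YAP pathway genes that could be compared did, apart from *Amotl2* when values were taken relative to *Gapdh*. Over all genes, 3456 of 13998, or 24.7%, passed in at least 1 pair. The median log2 ratio of the highest to the lowest library was 2.09 for the CCN genes, 0.86 for the YAP pathway genes, and 1.01 for all genes. Without the SAG library 2 of the 9 genes passed, *Ctgf* and *Nov*, as against 16.7% of all genes over the same libraries. Without the COR library *Nov*, *Wisp1*, and *Wisp2* passed, as against 21.1%. In a sorted bulk sample, fewer cells of a type and less RNA per cell cannot be told apart.

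**Figure D2:**
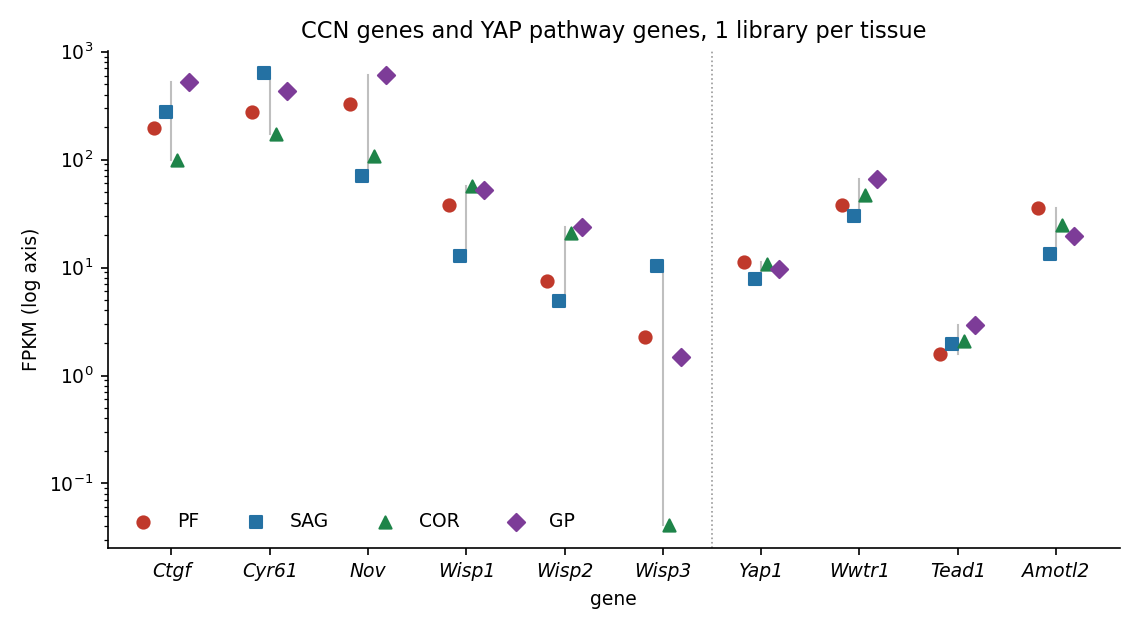
FPKM on a log axis of the CCN genes (left of the dotted line) and of 4 YAP pathway genes, with 1 point per library and a grey line from the lowest to the highest. *Ankrd1*, listed at 0 in the sutures, is left out; the CCN genes span ranges from 3.64-fold for *Cyr61* to 8.63-fold for *Nov* among the members, while *Yap1* spans 1.45-fold.

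*Ctgf*, also known as CCN2, acts in chondrocyte proliferation, angiogenesis, and matrix production. It was highest in GP, at 518 FPKM, followed by SAG at 277, PF at 195, and COR at 99.6. GP was thus above each suture, and COR was below the other sutures. The log2 ratio of GP to COR was 2.37, the only ratio of *Ctgf* past 3-fold, in a pair where 3.20% of all genes were at least 3-fold higher in GP. The remaining ratios were 1.41 for GP to PF, 0.90 for GP to SAG, 0.96 for PF to COR, and -1.47 for COR to SAG. The PF to SAG ratio of -0.51 became 0.02 relative to *Gapdh*, a scaling that moved the PF to SAG median of all genes from 0.03 to 0.49. The COR to SAG ratio passed 3-fold when libraries were scaled to a common sum, at -1.60, and after quantile normalization, at -1.73. *Ctgf* (mm9 chromosome 10, 24315248 to 24318489, plus strand) shares up to 347 bases of exon with an antisense transcript in the GENCODE annotation, and whether counting used strand is not given in the sources used here.

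*Cyr61*, or CCN1, encodes an immediate early matricellular protein that supports adhesion and chondrogenesis. It was the most abundant CCN transcript in SAG, at 628 FPKM, and stood at 436 in GP, 276 in PF, and 172 in COR. COR was again the lowest library, as for *Ctgf*, but the highest was SAG and not GP. The COR to SAG log2 ratio was -1.86, past 3-fold, where 6.15% of all genes were at least 3-fold lower in COR. Relative to *Gapdh* this ratio was -1.58 and just missed the threshold. It was the only 1 of the 9 ratios past 3-fold that was lost under any alternative. Of the 10 alternatives, only the scalings of the libraries and the correction for transcript GC content could have removed a ratio. The GP to COR ratio was 1.33, the PF to SAG ratio -1.18, the PF to COR ratio 0.68, the GP to PF ratio 0.65, and the GP to SAG ratio -0.53. After quantile normalization the PF to SAG ratio was -1.64, past 3-fold.

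*Ctgf* and *Cyr61* were both higher in GP and SAG than in PF and COR. The summed level of the 10 chondrocyte markers listed for comparison, such as *Col2a1* and *Matn1*, was also high in these 2 libraries. It was 5257 FPKM in SAG and 3865 in GP, compared with 183 in PF and 144 in COR. Not every gene followed the sum, since *Acan* was at 25.9 FPKM in SAG and 23.3 in PF. All 10 markers reached 1 FPKM in PF, COR, and GP, and 9 did in SAG. *Col10a1*, a marker of hypertrophic chondrocytes, was at 0.813 FPKM in SAG, below its 1.44 in PF, and at 600 in GP. The choroid plexus and neural markers summed to 5283 FPKM in SAG, where 7 of the 8 reached 1 FPKM, and to 12.1 in GP, where 2 did. *Ttr* was most of both sums, at 5103 FPKM in SAG and 9.74 in GP. Whether RNA of such cells takes part in the levels of *Ctgf* and *Cyr61* was not tested.

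*Nov*, or CCN3, is known for restraining proliferation and osteogenic differentiation in progenitor cells. Its range was the widest of the 10 genes, with 603 FPKM in GP, 324 in PF, 109 in COR, and 69.8 in SAG. The levels therefore fell into a high pair, GP and PF, and a low pair, COR and SAG. The log2 ratio was 3.09 for GP to SAG, 2.46 for GP to COR, and 2.20 for PF to SAG, all past 3-fold. In these pairs 3.86%, 3.20%, and 6.64% of all genes were at least 3-fold higher in the library named at the start. The PF to COR ratio of 1.57 lay just under the threshold, and passed it relative to *Gapdh*, at 1.82, and after a correction for transcript GC content, at 1.86, while the median of all genes for this pair was at 0.28 relative to *Gapdh*. The COR to SAG ratio was 0.63 and the GP to PF ratio 0.89. Between PF and SAG, *Nov* was the only 1 of the 9 genes past 3-fold, as against 15.7% of all genes. *Nov* (mm9 chromosome 15, 54577257 to 54585594) and *Wisp1* (66722882 to 66754763 on the same chromosome) are both on the plus strand, and their patterns differed.

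The summed level of smooth muscle and pericyte markers, like *Nov*, was high in PF and GP and lowest in SAG. The 6 genes of that list summed to 818 FPKM in PF, 614 in GP, 330.2 in COR, and 69.5 in SAG, and from 4 of them in SAG to all 6 in PF and GP reached 1 FPKM. *Acta2* and *Tagln* carried this sum, while *Rgs5* was lowest in COR and *Cspg4* was lowest in PF, at 8.81 FPKM, and highest in COR, at 19.7. The 6 tendon and fibroblast markers summed to 1607 FPKM in GP, 530 in PF, 336 in COR, and 181 in SAG, the same order of libraries as *Nov*, with 5 of the 6 at 1 FPKM or more in each library. *Tnmd*, a tendon gene, made up most of that sum in GP, at 1379 FPKM, and was higher in SAG, at 142, than in COR, at 69.6. Among the single genes *Mkx* had the order of *Nov*, whereas *Scx* was higher in COR than in PF, *Cd34* was highest in PF, and *Dpt* reached 100.1 FPKM in COR against 1.05 in PF. The part of such cells in the *Nov* values was not tested.

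*Wisp1* (CCN4) and *Wisp2* (CCN5) were named as Wnt-inducible genes, and *Wisp1* is expressed in preosteoblasts. The product of *Wisp2* lacks the C-terminal module of the other family members. *Wisp1* stood at 57.0 FPKM in COR, 52.4 in GP, 38.0 in PF, and 12.8 in SAG. *Wisp2* stood at 23.9 FPKM in GP, 20.7 in COR, 7.46 in PF, and 4.86 in SAG. Both genes were thus highest in COR and GP, next in PF, and lowest in SAG, the reverse of *Cyr61* among the sutures. Against SAG, the log2 ratio of *Wisp1* was 2.07 for COR and 1.95 for GP, and that of *Wisp2* was 1.89 for COR and 2.09 for GP. These 4 ratios stayed past 3-fold under the alternatives that could have removed them, the scalings of the libraries and the GC correction. At least 3-fold higher than in SAG were 3.11% of all genes for COR and 3.86% for GP.

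PF held an intermediate place for both genes. *Wisp1* had a PF to SAG log2 ratio of 1.50, which passed the threshold relative to *Gapdh*, at 2.01, and after the GC correction, at 1.76. For *Wisp2* the GP to PF ratio was 1.56 and the PF to COR ratio -1.36, and after the GC correction they were 1.97 and -1.63, both past 3-fold. Its PF to SAG ratio of 0.53 became -0.02 with that correction. *Wisp2* rested on an estimated 221 fragments in PF and 335 in SAG, the fewest of the CCN genes among the 10.

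The summed level of osteoblast markers was high in the same libraries as *Wisp1* and *Wisp2*. The 9 genes of the list, with *Spp1* as most of the sum, came to 12291 FPKM in COR, 8245 in GP, 2872 in PF, and 897 in SAG, the order of *Wisp1*, and 8 or 9 of them reached 1 FPKM in each library. Single genes differed from that order. *Bglap*, *Alpl*, *Ifitm5*, and *Runx2* were higher in PF than in GP, with *Bglap* at 426 and 159 FPKM, and *Phex* and *Dmp1* were lowest in PF. Their part in the 2 genes' levels was not tested.

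*Wisp3* (CCN6), the remaining gene of the family and not among the 10, was at 10.4 FPKM in SAG, 2.25 in PF, 1.48 in GP, and 0.041 in COR. SAG was at least 3-fold above each of the others for *Wisp3*, which held for 2.85% of all genes. The COR value corresponds to about 2 fragments. Up to 88 bases of exon are shared with *Tube1* on the opposite strand, so part of the *Wisp3* value is uncertain.

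**Figure D3:**
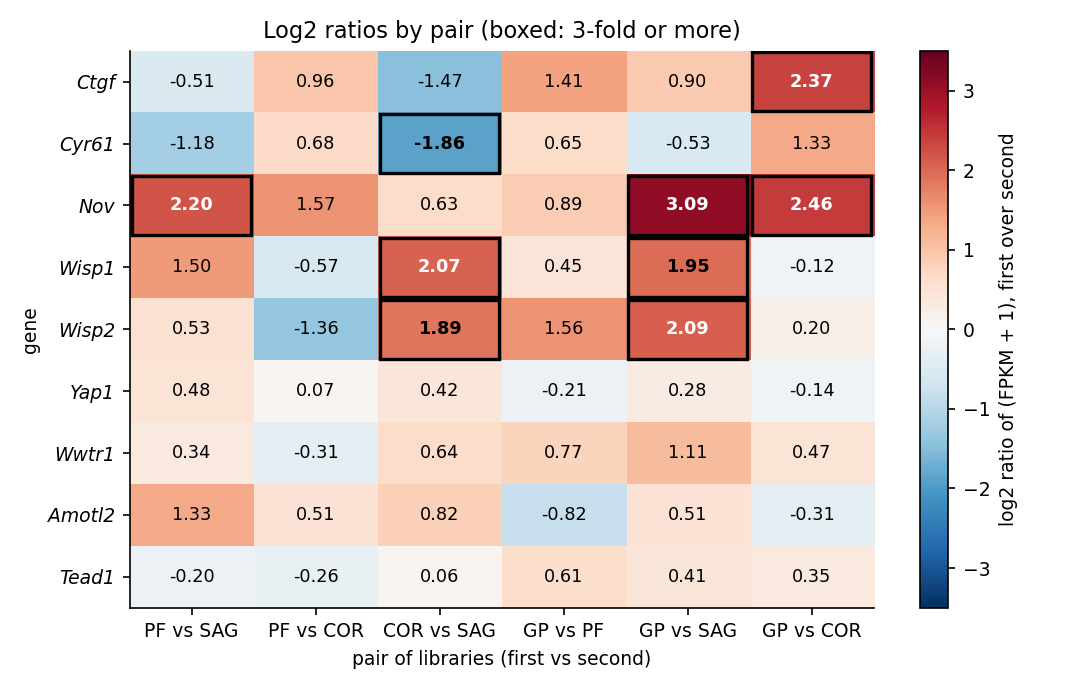
Log2 ratios of FPKM + 1 for 9 genes in the 6 pairs of libraries, written in each cell, with red for higher and blue for lower in the library named at the start of the pair. Boxes mark the 9 ratios of 3-fold or more, all in the upper 5 rows, the CCN genes; *Ankrd1* is left out because it was below 1 FPKM in every library.

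Summed over the 6 CCN genes, transcripts came to 1635 FPKM in GP, 1003 in SAG, 843 in PF, and 458 in COR. As a share of all FPKM this was 0.317%, 0.224%, 0.153%, and 0.0934%, and the COR total lacks *Sparc*, *Col1a1*, and *Col3a1*, listed at 0 there and summing to between 4862 and 17837 FPKM in the other libraries. The genes that made up this sum differed by library. *Cyr61* was 62.6% of the CCN sum in SAG, compared with 37.6% in COR, 32.8% in PF, and 26.7% in GP. *Nov* was 38.4% in PF, 36.9% in GP, and 23.7% in COR, but 6.96% in SAG. The share of *Ctgf* lay between 21.7% in COR and 31.7% in GP. *Wisp1* and *Wisp2* together with the small share of *Wisp3* filled the remainder, and in COR *Wisp1* made up 12.4% and *Wisp2* 4.51%. The leading CCN transcript was therefore *Nov* in PF and GP and *Cyr61* in SAG and COR. The ratio of *Nov* to *Cyr61* was 1.38 in GP, 1.17 in PF, 0.630 in COR, and 0.111 in SAG, and since it is taken within a library it does not depend on scaling between libraries.

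**Figure D4:**
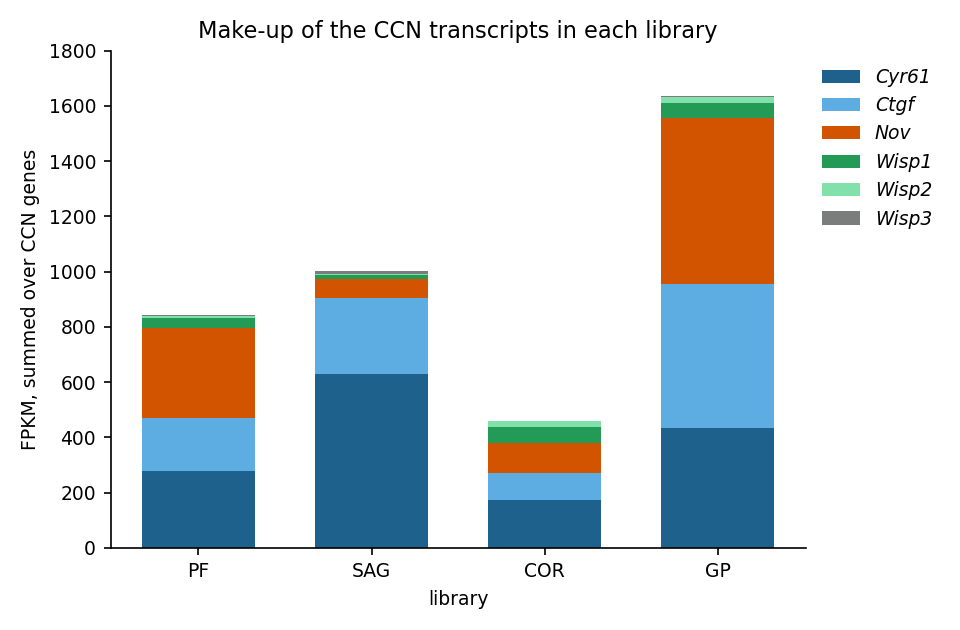
Stacked FPKM of the 6 CCN genes in each library, with bars starting at 0. The bars range from 458 FPKM in COR to 1635 in GP, and the orange part, *Nov*, is 69.8 FPKM in SAG and 603 in GP.

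*Yap1* and *Wwtr1* were expressed in all libraries, with no ratio past 3-fold. *Yap1* stood at 11.3 FPKM in PF, 10.7 in COR, 9.62 in GP, and 7.77 in SAG, and its log2 ratios lay between -0.21 and 0.48 over the 6 pairs. The log2 range of *Yap1* over the libraries, 0.48, was wider than that of 16.2% of the genes compared. The order of PF and COR turned when libraries were scaled to a common sum, to a log2 ratio of -0.09. *Wwtr1* was more abundant than *Yap1* in every library, at 65.9 FPKM in GP, 47.4 in COR, 38.1 in PF, and 30.0 in SAG. Its largest log2 ratio, GP to SAG, was 1.11, below 3-fold. The PF to COR ratio of *Wwtr1*, -0.31, became 0.0047 after the GC correction. The ratio of *Wwtr1* to *Yap1* FPKM was 6.84 in GP, 4.42 in COR, 3.85 in SAG, and 3.38 in PF. *Yap1* shares up to 116 bases of exon with a transcript on the opposite strand.

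*Tead1*, which encodes a DNA-binding partner of both coactivators, was low. It stood at 2.94 FPKM in GP, 2.09 in COR, 1.96 in SAG, and 1.58 in PF, and its log2 ratios were between -0.26 and 0.61. Of these, the PF to SAG ratio of -0.20 changed sign relative to *Gapdh* and after the GC correction, and the COR to SAG ratio of 0.06 changed sign when scaled to a common sum. The other TEAD genes, named after their values were seen, show which family member led. *Tead2* lay between 11.1 FPKM in COR and 17.7 in PF, which was between 76.0% and 85.6% of all TEAD transcripts per length. *Tead1* was from 7.64% of them in PF to 16.5% in GP. *Tead3* was at most 1.35 FPKM, and *Tead4* at most 0.255.

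*Amotl2* encodes an angiomotin, a junction and actin-associated protein that binds YAP. It was highest in PF, at 35.2 FPKM, and was at 24.5 in COR, 19.6 in GP, and 13.5 in SAG. The PF to SAG log2 ratio was 1.33 and the PF to COR ratio 0.51, neither past 3-fold. The former passed only relative to *Gapdh*, at 1.83. Its order over the libraries was that of *Yap1*, for which PF and COR traded places when libraries were scaled to a common sum. This order differed from those of *Ctgf* and *Cyr61*, the other target genes among the 10 with measurable levels. In SAG *Cyr61* was at its highest and *Amotl2* at its lowest. *Amotl2* made up between 69.2% and 82.6% of the transcripts per length of the 3 angiomotin genes, with *Amotl1* at 7.21 FPKM or less and *Amot* at 2.48 or less, both named after their values were seen.

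*Ankrd1* encodes a cardiac and muscle ankyrin repeat protein, induced by YAP in many cell types. It is listed at 0 in PF, SAG, and COR and was at 0.086 FPKM in GP, about 5 fragments by the depth estimate. No ratio is given for it. Of 11 skeletal and cardiac muscle markers, from 1 in SAG to 4 in GP reached 1 FPKM, their sum lay between 3.91 and 13.2 FPKM, and *Myod1* is listed at 0 in every library.

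Among the 9 genes other than *Ankrd1*, GP was the highest library for 5 and SAG the lowest for 6. Over all genes at 1 FPKM or more in a library, GP was highest for 16.4% and SAG lowest for 27.4%. The GP count was 4 relative to *Gapdh* and 5 under the other scalings, and the SAG count was 7 relative to *Gapdh* and 6 under the others. Without the SAG library GP was highest for 6 of the 9 genes, as against 28.2% of all genes. Between pairs of libraries, 3 of 9 genes passed 3-fold for GP and SAG, as against 8.66% of all genes, and 3 of 9 for COR and SAG, as against 9.25%. For GP and COR the number was 2, as against 4.40% of all genes. Between PF and COR and between GP and PF it was 0, as against 11.7% and 12.0%. No library was at least 3-fold above or below all 3 others for any of the 10 genes. Over all genes PF was above all others for 2.69%, SAG for 2.85%, GP for 0.979%, and COR for 0.400%, and PF was below for 2.09%, SAG for 0.636%, GP for 0.257%, and COR for 0.236%. *Wisp1* was at least 3-fold below all others in SAG relative to *Gapdh* and after the GC correction.

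The other genes of the pathway varied to different degrees. Of 22 common YAP/TAZ target genes, 4 of which are among the 10, 20 reached 1 FPKM and 10 passed 3-fold in at least 1 pair. Without those 4 genes, 8 of 17 passed, with a median log2 range of 1.41, beside 24.7% and 1.01 over all genes. Without the SAG library 5 of 16 passed, as against 16.7% of all genes, since *Axl*, *Crim1*, and *Ccdc80* passed only against SAG, and without the COR library 5 of 17 passed, as against 21.1%. Their patterns were not alike. *Igfbp3*, an IGF-binding protein gene, was at 724 FPKM in GP, 476 in PF, 134 in COR, and 20.8 in SAG, the same order as *Nov*. *Gadd45a*, a stress-inducible growth arrest gene, was at 91.2 FPKM in SAG, 21.0 in GP, 11.6 in COR, and 0.957 in PF. *F3*, which encodes tissue factor, was at 13.9 FPKM in COR, 9.32 in SAG, 8.75 in GP, and 0.161 in PF, the last about 5 fragments. Thus PF was at least 3-fold below all others for *Gadd45a* and *F3*, as it was for 2.09% of all genes. The PF value of *Gadd45a* corresponds to about 20 fragments. SAG was at least 3-fold above all others for *Gadd45a*, as for 2.85% of all genes. It was at least 3-fold below all others for *Igfbp3*, as for 0.636%.

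Further target genes differed in the library where they were highest. *Ccdc80*, a matrix-associated protein gene, and *Crim1*, which encodes a BMP-binding membrane protein, were highest in SAG, at 251 and 8.58 FPKM, and lowest in COR, at 77.7 and 2.18, as *Cyr61* was. *Nt5e*, the gene of the ectonucleotidase CD73, was at 62.0 FPKM in GP, 22.6 in SAG, 15.9 in COR, and 11.5 in PF. *Axl*, a receptor tyrosine kinase gene, and *Fjx1*, a homologue of four-jointed, were highest in PF, at 44.8 and 28.6 FPKM, like *Amotl2*. *Axl* was lowest in SAG, at 13.3 FPKM, and *Fjx1* in COR, at 8.04.

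The upstream parts of the pathway are set against the same 24.7% of all genes. Of 13 Hippo kinases and adaptors, including the genes of MST and LATS kinases, 1 passed 3-fold in any pair, and the median log2 range was 0.75. With a pseudocount of 0.1 the count was 2, and without PF or without GP it was 0. That gene was *Stk38l*, an NDR kinase gene, at 6.67 FPKM in GP, 4.19 in SAG, 3.10 in COR, and 1.33 in PF. *Lats2*, both a kinase and a target gene, lay between 10.4 FPKM in SAG and 18.2 in COR. Of 17 upstream regulators and YAP-binding proteins 3 passed, with a median log2 range of 0.88. With a pseudocount of 0.1 the count was 5, without SAG it was 1, and without PF it was 0. *Dchs1*, a protocadherin gene, was at 11.5 FPKM in PF and from 2.78 to 3.46 elsewhere, and *Ajuba*, which encodes a LIM protein that inhibits LATS, was at 25.1 FPKM in PF, 17.0 in GP, 8.77 in SAG, and 7.28 in COR. Of the 7 TEAD and VGLL genes other than *Tead1*, 4 reached 1 FPKM and 1 passed, *Vgll3*, at 2.87 FPKM in GP and 0.204 in SAG, chosen after its values were seen, and without SAG or without GP none passed.

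**Figure D5:**
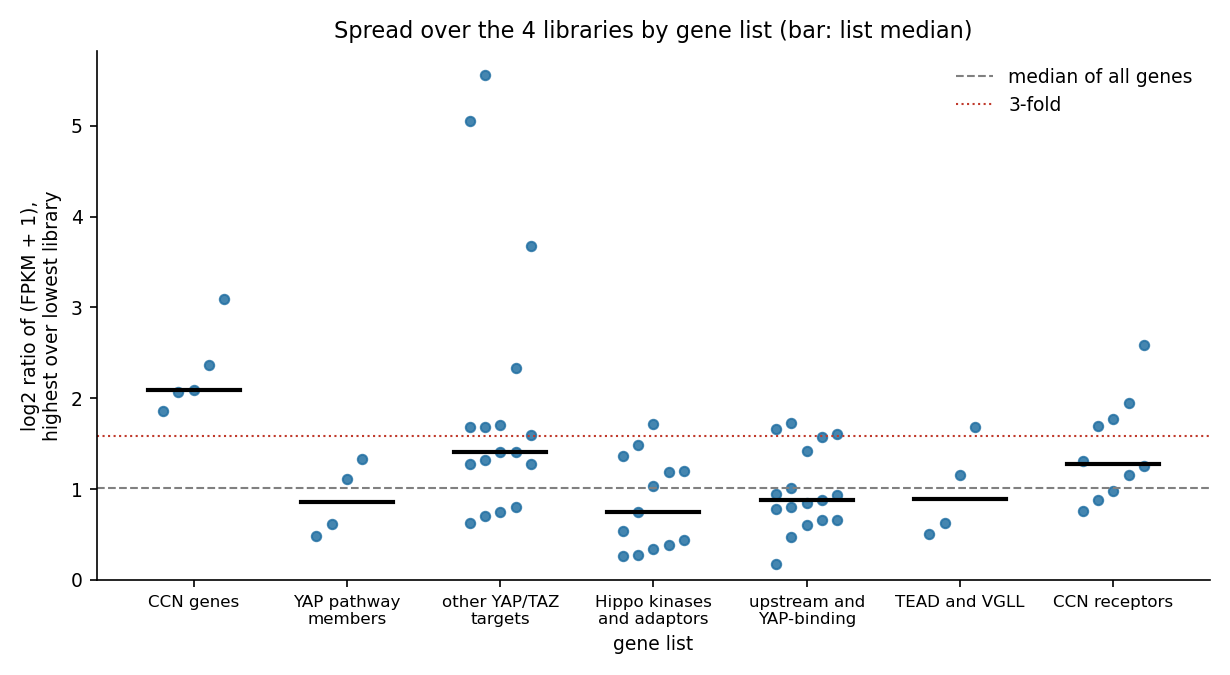
Log2 ratio of FPKM + 1 between the highest and the lowest of the 4 libraries, 1 point per gene at 1 FPKM or more in a library, for 7 gene lists; black bars are list medians, the dashed line the median of all genes (1.01), and the dotted line 3-fold (1.58). All CCN genes lie above the dotted line and all YAP pathway members below it.

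For each gene, the symbols with the most similar pattern were found by Euclidean distance over mean-centred log2(FPKM + 1) in the 4 libraries, among 9802 symbols at 5 FPKM or more in a library. With only 4 points per gene this is a description. Values were not scaled to a common range, so genes with narrow ranges lie close together even where their orders differ. *Yap1* and *Wwtr1*, for example, were highest in PF and in GP. The nearest to *Ctgf* were *Nrk*, *Camk4*, and *Sostdc1*, at distances from 0.21 to 0.47. For *Cyr61* they were *Gadd45b*, *Crim1*, and *C430049B03Rik*, at 0.21 to 0.26, and *Gadd45b* was at 241 FPKM in SAG and 65.1 in COR. Those nearest to *Nov* were *Ism1*, *Olfr558*, and *Emilin3*, at 0.32 to 0.40. The nearest to *Wisp1* were the collagen gene *Col12a1*, the prolyl hydroxylase gene *P4ha3*, and *Ptgis*, at 0.19 to 0.26. *Wisp2* was nearest to the collagen gene *Col24a1*, the Wnt antagonist gene *Wif1*, and *Net1*, at 0.28 to 0.35. The flatter genes had closer neighbours: *Dnpep*, *Rsu1*, and *Tcf25* for *Yap1*, at 0.03 to 0.04, *Tmem189*, *Mogs*, and *Mfsd5* for *Amotl2*, at 0.04 to 0.09, and *Bcl3*, *Tekt2*, and *Uap1* for *Wwtr1*, at 0.11 to 0.12. Among the 10 genes themselves the closest pairs were *Yap1* with *Amotl2*, at 0.62, *Yap1* with *Wwtr1*, at 0.75, *Wisp1* with *Wisp2*, at 0.86, and *Ctgf* with *Cyr61*, at 1.05 after *Wisp2* with *Wwtr1*, at 1.04. *Tead1* and *Ankrd1* were below 5 FPKM and were not placed.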

How the data were processed

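RNA of CD51+;CD200+ cells was measured in 4 libraries, 1 per tissue, grouped by the sample labels. Per the submitters' processing notes and the study's methods, STAR 2.5.1b served to align the read pairs to mouse mm9, and Cuffdiff of Cufflinks 2.2.1 to compute FPKM from an iGenomes gene model. FPKM as deposited by the authors has 1 value per symbol and library, and how Cuffdiff normalized the libraries is not given in the sources used here.

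All ratios are differences of log2(FPKM + 1), a scale that understates changes of low genes, for genes at 1 FPKM or more in either library of a pair. With 1 library per tissue no test was made, and 3-fold or more was counted beside the same count over all genes. Median log2 ratios over all genes lay between -0.03 and 0.05. The members and lists were chosen with earlier results of these data known. Named were the 10 members, *Wisp3*, pathway genes past 3-fold with 5 FPKM or more, and the 3 symbols nearest in pattern to each member. Marker genes and *Gapdh* are given as values. A pathway gene that passed 3-fold is not reported here.

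Depth was estimated from low values of FPKM multiplied by transcript length, over genes with 1 coding transcript longer than 2 kb. The most populated cluster of these values was assumed to be 1 fragment. Fragments per gene used the longest coding transcript. Positions, lengths, and GC content came from the GENCODE M1 annotation of mm9, which covered 80.8% of symbols. Promoter sequences are from RefSeq, with symbols matched through RefSeq synonyms. Alternatives were a pseudocount of 0.1, other expression filters, 4 scalings, a loess correction for GC content (span 0.3), and a fold of 2. Leaving out a library was added after the data were seen. Only the 3-fold calls and the GC correction were tested on simulated data, which checks the code and not the spread between real libraries. Python 3.11.15, numpy 2.4.6, pandas 2.3.3, statsmodels 0.14.6, and matplotlib 3.10.9 were used.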

Additional observations from a re-analysis of the deposited data

How the results depend on the processing

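No paired analysis was possible because there was 1 library for each tissue. Of the 9 gene ratios past 3-fold, 8 stayed past it with the pseudocount of 0.1, the 4 scalings, and the GC correction. *Cyr61* for COR vs SAG missed it relative to *Gapdh*, at -1.58. The expression filters and a fold of 2 could not remove any of the 9 ratios, so they did not probe them. None changed sign. Counts of genes past 3-fold that moved by over 1.5 times are given here, and the cause was not tested except where a fold of 2 widens the count by construction. With a pseudocount of 0.1 they were 1 of the members for GP vs PF, 2 Hippo kinases and adaptors, and 5 upstream regulators. Scaling to a common sum gave 1 member for GP vs PF and 2 Hippo kinases and adaptors. Quantile normalization gave 2 members for PF vs SAG. Relative to *Gapdh*, 3 members passed for PF vs SAG, 1 passed for PF vs COR, 1 YAP pathway gene in any pair, and 1 was apart from all other tissues. After the GC correction the numbers were 2 members for PF vs SAG, 2 members for PF vs COR, 1 for GP vs PF, 1 apart from all other tissues, and 2 CCN receptors. With a filter of 5 FPKM in either library, or of 1 FPKM in both, 0 TEAD and VGLL genes passed. A fold of 2, which 50.9% of all genes passed in any pair, gave 4 members for PF vs SAG (34.7% of all genes), 2 members for PF vs COR (29.4%), 2 for GP vs PF (29.1%), 1 apart from all others, 2 YAP pathway genes, 6 Hippo kinases and adaptors, 6 upstream regulators, 2 TEAD and VGLL genes, 16 target genes, and 7 CCN receptors. Leaving out the SAG library gave 2 members in any pair, all CCN genes, 1 upstream regulator, 0 TEAD and VGLL genes, and 6 target genes, and leaving out COR gave 3 members, all CCN genes, and 5 target genes. Leaving out PF gave 0 Hippo kinases and adaptors and 0 upstream regulators, and leaving out GP gave 0 Hippo kinases and adaptors and 0 TEAD and VGLL genes. All genes past 3-fold were 16.7% without SAG, 21.1% without COR, 13.0% without PF, and 21.8% without GP. Median-ratio scaling and no filter on low values moved none of the counts by over 1.5 times. Division by *Gapdh* moved the median log2 ratio of all genes to 0.49 for PF vs SAG, from 0.03, and scaling to a common sum moved it to -0.24, so the values under these settings are to be read against those medians. By the depth estimate PF had 43.1% of the fragments of SAG, which limits low values in PF.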

Other observations

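CCN proteins act partly through integrins and LDL receptor-related proteins on the cell surface. Of 13 genes listed as CCN receptors, 10 reached 1 FPKM and 4 passed 3-fold in at least 1 pair, with a median log2 range of 1.28, beside 24.7% and 1.01 over all genes. After the GC correction 2 passed. *Itgb1*, the shared β1 subunit, lay between 143 FPKM in PF and 264 in COR, and *Itgav*, used in the sort as CD51, between 6.20 in SAG and 15.0 in COR. Both were present in every library and neither passed 3-fold.

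The 4 that passed had separate patterns. *Itgb5*, the β5 subunit that pairs with αv, was at 324 FPKM in COR and 303 in PF, compared with 105 in GP and 99.1 in SAG. *Itgb3*, the β3 subunit, was at 5.86 FPKM in COR, 4.85 in GP, 1.20 in PF, and 1.01 in SAG. *Itga6*, a laminin-binding subunit, was at 13.2 FPKM in GP, 4.04 in PF, 3.07 in SAG, and 1.35 in COR. *Lrp1*, a large endocytic receptor, was at 43.7 FPKM in PF, 23.3 in COR, 17.4 in GP, and 10.6 in SAG. Thus for *Itgb5* and *Itgb3* COR was highest and SAG lowest, for *Itga6* GP was highest, and for *Lrp1* PF was highest.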
